A study of Mus musculus with 17 samples.

Results

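The cyclin-dependent kinase inhibitors Cdkn1a, Cdkn1b, Cdkn1c, Cdkn2c and Cdkn2d were followed at the transcript level through 5 progenitor fractions sorted from mouse bone marrow. Members were taken by symbol: every probe set of the array whose annotation gave 1 gene symbol, and that symbol was a member's. This gave 5 of 18193 named genes and 7 of 45037 probe sets, because Cdkn1a and Cdkn1b have 2 probe sets each and the other members have 1. Each value is an RMA intensity, the summary that the RMA method gives for the probes of a probe set, on a linear scale.

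The fractions came from adult mice of 10 to 14 weeks, and the labels give no strain, genotype or treatment. CLP (common lymphoid progenitors, gated Lin-Sca1lowKitlowIL7r+Flk2+) had 3 arrays. The other 4 fractions were Lin-Sca1-Kit+. MkP (megakaryocyte progenitors, Itga2b+Slamf1+) had 3 arrays, preCFUE (an early erythroid stage, Itga2b-FcgRlowSlamf1+Enghigh) had 3, preMegE (shared precursors of megakaryocytes and red cells, Itga2b-FcgRlowSlamf1+Englow) had 5, and preGM (directed to granulocytes and monocytes, Itga2b-FcgRlowSlamf1-Englow) had 3. Whether replicate arrays stem from different animals is not stated, so a p-value here reflects the scatter among arrays alone, and that scatter may be technical.

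These genes encode small proteins that bind cyclin-dependent kinases and hold them inactive. The products of Cdkn1a, Cdkn1b and Cdkn1c form the CIP/KIP family, which binds complexes of a cyclin and its kinase, above all those of CDK2 with cyclin E or cyclin A. The products of Cdkn2c and Cdkn2d belong to the INK4 family, which binds CDK4 and CDK6 before D-type cyclins can, so that the retinoblastoma protein stays unphosphorylated and E2F targets stay silent. In mice, several of these genes are known to restrain the division of blood stem and progenitor cells. Their proteins are also controlled strongly by degradation, which transcript arrays do not measure.

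The promoter windows of the 3 members whose leading probe sets differed most between fractions are shown here, because these are the genes on which the comparisons turn. The sequences are RefSeq windows of assembly GRCm38.p6, from 250 bases before to 50 bases after a transcript start, written 5′ to 3′ on the gene's strand. Capitals mark the GC box GGGCGG on either strand, the core of the site bound by SP1-type factors.
Cdkn1a, the downstream of its 2 windows, chr17:29093519-29093818, plus strand: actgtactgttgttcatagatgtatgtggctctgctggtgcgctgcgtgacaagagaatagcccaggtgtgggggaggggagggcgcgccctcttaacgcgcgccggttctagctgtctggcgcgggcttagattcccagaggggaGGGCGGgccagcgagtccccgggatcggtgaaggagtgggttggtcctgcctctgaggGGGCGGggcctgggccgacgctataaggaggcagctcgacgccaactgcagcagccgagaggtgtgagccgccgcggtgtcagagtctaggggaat
Cdkn1b, chr6:134920151-134920450, plus strand: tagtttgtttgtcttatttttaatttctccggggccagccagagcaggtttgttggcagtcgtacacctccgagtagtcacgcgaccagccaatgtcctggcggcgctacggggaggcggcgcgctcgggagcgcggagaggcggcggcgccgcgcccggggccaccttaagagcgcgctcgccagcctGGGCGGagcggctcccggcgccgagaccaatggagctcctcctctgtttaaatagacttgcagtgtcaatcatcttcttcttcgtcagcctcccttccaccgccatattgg
Cdkn2d, chr9:21291160-21291459, minus strand: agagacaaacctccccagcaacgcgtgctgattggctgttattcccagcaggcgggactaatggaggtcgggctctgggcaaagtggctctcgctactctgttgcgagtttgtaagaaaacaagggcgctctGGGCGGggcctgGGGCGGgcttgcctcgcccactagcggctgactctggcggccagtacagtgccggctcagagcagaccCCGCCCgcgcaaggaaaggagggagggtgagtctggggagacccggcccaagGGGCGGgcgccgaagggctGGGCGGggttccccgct
The GC box occurred 2 times in the Cdkn1a window shown, 1 time in that of Cdkn1b and 5 times in that of Cdkn2d. Of the other windows, that of Cdkn2c at chr4:109666707-109667006 held 4, whereas the second Cdkn2c window and the upstream Cdkn1a window held 0. Of 32851 promoter windows of the same length, 35.7% held at least 1 GC box. GC content was 64.7% in the Cdkn1a window shown, 62% in that of Cdkn1b and 66.3% in that of Cdkn2d, against a median of 52.7% over all windows. None of the windows read, which belong to Cdkn1a, Cdkn1b, Cdkn2c and Cdkn2d, held a GATA motif (AGATAA or TGATAA, in 18.6% of all windows), an E2F motif (TTTCGCGC, TTTGGCGC or TTTCCCGC, in 1.84%) or the FoxO motif GTAAACA (in 3.65%), on either strand, and a Cdkn1c window was not analysed here. The E-box CACGTG, in 7.15% of all windows, occurred 1 time, in the second Cdkn2c window. GC content was 54.7% in the upstream Cdkn1a window and 73.3% and 44% in the Cdkn2c windows, and the arrays do not say which start was used.

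Marker transcripts mostly followed the gates and lineages. Summed intensity of 6 CLP markers (among them Il7r, Flt3 and Rag1) ran from 10453 to 18264 in CLP, from 2411 to 3649 in preGM and no higher than 170 in the other fractions. The sum of 6 MkP markers (among them Pf4 and Itga2b) was at least 11144 on every MkP array and at most 898 elsewhere. Gp5 of the same list separated less, at a mean of 170 in MkP, 131 in preMegE and 113 in preCFUE. The sum of 6 preCFUE and erythroid markers was 12953 to 14096 in preCFUE and 6208 to 9477 in preMegE. The sum of 5 preMegE and shared megakaryocyte-erythroid markers did not set preMegE apart, at 3515 to 4881 there, 2523 to 3557 in MkP and 2644 to 3018 in preCFUE. Of these, Gata1 averaged 1400 in preCFUE and 1219 in preMegE, and Gata2 309 and 1751. The sum of 6 preGM markers was 17710 to 19262 in preGM and 2161 to 2973 in CLP, where Mpo averaged 766 and Irf8 1162, and at most 516 elsewhere. Slamf1, part of the preCFUE gate, averaged 20.4 there, against 101 in preMegE. CLP replicate 2 stood apart: its mean correlation was 0.962 with the preGM arrays and 0.948 with the other CLP arrays, while its log2 ratio of the 3-prime to the 5-prime Gapdh control, a measure of RNA shortening, was 3.00, against 5.12 and 4.08 in CLP replicates 1 and 3. Markers of mature neutrophils differed between arrays of the same fraction, with sums of 117 to 1400 in MkP, 98.96 to 1557 in preMegE and 213 to 1566 in preGM. Their part in the results below was not tested. In sorted pools, fewer cells expressing a gene and less RNA per cell cannot be told apart.

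Differences were tested with limma on log2(intensity + 16), in 1 fit of all 17 arrays with a term per fraction, for each of the 10 pairs of fractions. Fold changes are given on that scale with ± SE, and means of intensity with ± SD over n = 5 arrays in preMegE and n = 3 arrays in each other fraction. Within a comparison, Benjamini-Hochberg adjustment ran over all 45037 probe sets, and a probe set passed where its adjusted p was under 0.05. The scale understates the change of dim probe sets, and levels are not compared between probe sets. By the moderated F test over the 5 fractions, 5 of the 7 member probe sets passed, against 23.7% of all probe sets. The leading probe sets of Cdkn1a (adjusted p = 1.34e-08), Cdkn1b (0.000115), Cdkn2d (0.000325) and Cdkn2c (0.0289) and the second of Cdkn1a (0.000751) passed. The dim second probe set of Cdkn1b (0.192) and the probe set of Cdkn1c (0.101) did not.

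Cdkn1a, which encodes the CIP1 protein and is known as a target of the DNA damage response, was highest in CLP and second in preGM, and low in the 3 megakaryocyte-erythroid fractions. Its leading probe set, 1424638_at, read 231, 313 and 236 in CLP, 40.6, 40.7 and 44.3 in MkP, and 37.9, 29.2 and 35.0 in preCFUE. It read 52.3, 54.3, 73.7, 51.1 and 62.2 in preMegE and 115, 121 and 138 in preGM. Every CLP array lay above every array of the other fractions, and every preGM array above all MkP, preCFUE and preMegE arrays.

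**Figure D1:**
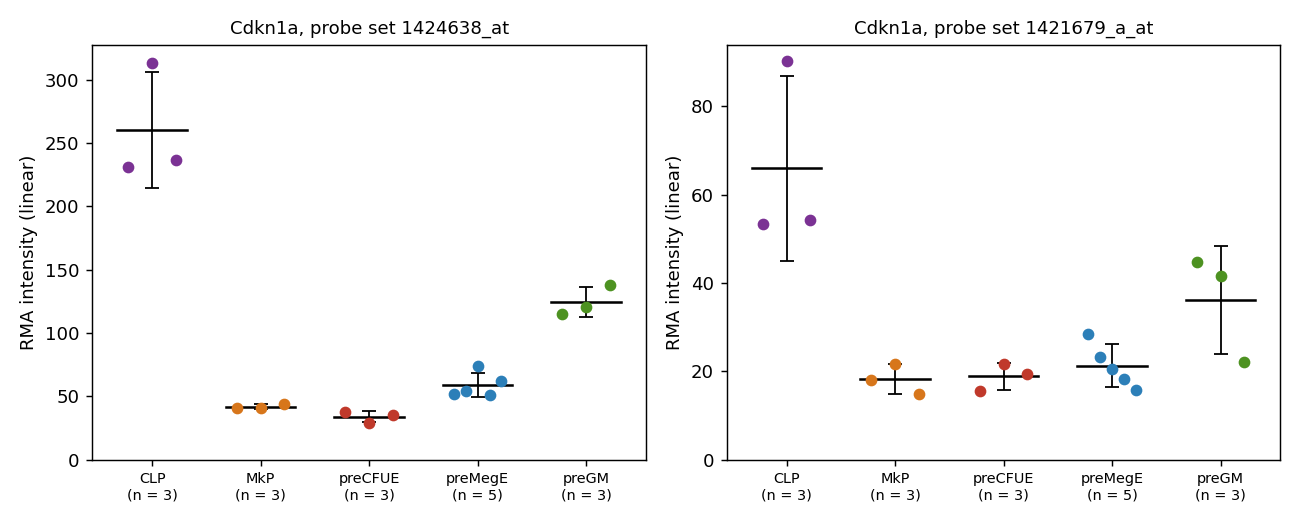
RMA intensity (linear, y axis from 0) of both Cdkn1a probe sets on each array, by fraction (x axis). Points are arrays, horizontal bars are means and error bars are SD. In the left panel CLP lies at 231 to 313 and preGM at 115 to 138, while no array of the other 3 fractions exceeds 73.7.

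Mean intensity of this probe set was 260 ± 46.1 in CLP, 41.8 ± 2.12 in MkP, 34.0 ± 4.43 in preCFUE, 58.7 ± 9.43 in preMegE and 125 ± 12.0 in preGM. The CLP mean was 7.65 times that of preCFUE and 2.09 times that of preGM. Log2 fold changes were 2.46 ± 0.12 for CLP against preCFUE (limma adjusted p = 7.62e-09), 2.24 ± 0.12 against MkP (2.51e-08), 1.88 ± 0.11 against preMegE (3.44e-08) and 0.96 ± 0.12 against preGM (0.000281). Cdkn1a was therefore in descending order CLP, preGM, preMegE, MkP and preCFUE, and the neighbours at the bottom of that order did not pass, although their arrays did not overlap. MkP against preCFUE gave 0.21 ± 0.12 (adjusted p = 0.348, 95% interval -0.055 to 0.48), and MkP against preMegE gave -0.36 ± 0.11 (0.0756), which passed without CLP replicate 2 (0.0329) and with array weights (0.0395).

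Within the myeloid fractions Cdkn1a fell in preMegE against preGM, by 0.92 on the log2 scale (adjusted p = 9.27e-05), and again in preCFUE against preMegE, by 0.57 (0.00653). It also fell in MkP against preGM, by 1.28 (1.37e-05), and in preCFUE against preGM, by 1.49 (1.63e-06). All 8 differences of this probe set that passed also passed under every alternative processing that was run for them. Without CLP replicate 2, the CLP array with the highest reading, the Cdkn1a difference of CLP from preGM was 0.83 (adjusted p = 0.000492) and from preCFUE 2.32 (2.5e-08). With the Gapdh ratio of each array as a covariate, CLP against preGM was 1.00 (0.000731).

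The second Cdkn1a probe set, 1421679_a_at, ran in the same direction at CLP but resolved less. It read 53.4, 90.2 and 54.3 in CLP, 18.1, 21.6 and 14.9 in MkP, and 15.6, 21.7 and 19.5 in preCFUE. It read 28.5, 23.2, 20.7, 18.3 and 15.8 in preMegE and 44.8, 41.6 and 22.2 in preGM. The 3 CLP arrays again lay above all others, but preGM replicate 3 fell among the preMegE arrays. CLP was higher than MkP (1.24 ± 0.19, adjusted p = 0.000665), preCFUE (1.20 ± 0.19, 0.000426) and preMegE (1.12 ± 0.17, 0.000444). The difference from preGM (0.65 ± 0.19, 0.0435) passed narrowly and was lost in 18 of 27 alternatives, among them leaving out any CLP, preCFUE or preGM array, with adjusted p of 0.0896 without CLP replicate 2 and 0.110 without preGM replicate 3. preCFUE against preMegE (-0.088 ± 0.17, 0.973) and preMegE against preGM (-0.47 ± 0.17, 0.196) did not pass, but the second of these passed with array weights (-0.65, 0.00119) and without preGM replicate 3 (-0.68, 0.0290). The 2 probe sets had a Pearson correlation of 0.88 over the 17 arrays, which share the fractions.

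Cdkn1b, which encodes the KIP1 protein and is known to accumulate in cells that leave the cycle, was highest in preMegE, and the fractions on either branch beyond it read lower. Probe set 1434045_at read 51.5, 96.4 and 44.0 in CLP, 90.2, 84.8 and 89.7 in MkP, and 80.4, 64.2 and 98.4 in preCFUE. It read 166, 178, 194, 194 and 184 in preMegE and 129, 130 and 131 in preGM. All preMegE arrays lay above all others, all preGM arrays above those of CLP, MkP and preCFUE, and these last 3 fractions overlapped.

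Mean Cdkn1b intensity was 63.97 ± 28.3 in CLP, 88.2 ± 2.99 in MkP, 81.0 ± 17.1 in preCFUE, 183 ± 11.7 in preMegE and 130 ± 1.03 in preGM. It was lower in MkP than in preMegE (-0.93 ± 0.16, limma adjusted p = 0.00248) and lower in preCFUE than in preMegE (-1.05 ± 0.16, 0.00107). These comparisons share the preMegE arrays. CLP was lower than preMegE (-1.37 ± 0.16, 3.59e-05) and than preGM (-0.92 ± 0.18, 0.0059), although the second difference missed in a fit of only those 6 arrays (0.157). CLP replicate 2 had the highest Cdkn1b reading of the CLP arrays, at 96.4, and without it the difference of CLP from preGM was -1.20 (adjusted p = 2.77e-05).

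preMegE against preGM, the neighbours at the top of the Cdkn1b order, gave 0.45 ± 0.16 (adjusted p = 0.175, 95% interval 0.11 to 0.79) although their arrays did not overlap. That difference passed without CLP replicate 2 (0.00884), with array weights (0.00871) and in a fit of only those arrays (0.00383). MkP against preGM (-0.49 ± 0.18, 0.128) likewise passed without CLP replicate 2 (0.0106), with array weights (0.0177) and in a fit of only those arrays (0.00861). preCFUE against preGM narrowly missed (-0.61 ± 0.18, limma adjusted p = 0.0506), and this pair was not recomputed singly. At the bottom of the order, MkP against preCFUE gave 0.12 ± 0.18 (0.77, interval -0.26 to 0.50). CLP against preCFUE gave -0.32 ± 0.18 (0.241), and passed without CLP replicate 2 (-0.59, 0.0019).

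The other Cdkn1b probe set, 1419497_at, was dim throughout. It lay between 6.90 and 20.5, with 15 of 17 arrays under 16, and no pair of fractions passed. Its order differed from that of the brighter probe set, with its highest mean in CLP (14.5 ± 3.76), where 1434045_at had its lowest. CLP against MkP gave 0.24 ± 0.11 (limma adjusted p = 0.243) for 1419497_at and -0.44 ± 0.18 (0.175) for 1434045_at. A dim probe set may fail to measure its transcript, and the cause of the difference was not tested.

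Cdkn2d, which encodes the INK4D protein and is known in megakaryocytes for a link with the arrest of endoreplication, was highest in MkP and preMegE. Probe set 1416253_at read 10.5, 21.3 and 10.0 in CLP, 70.5, 91.6 and 48.9 in MkP, and 24.3, 14.5 and 22.1 in preCFUE. It read 65.7, 56.7, 69.3, 65.0 and 72.5 in preMegE and 42.7, 41.7 and 14.9 in preGM. The MkP and preMegE arrays overlapped each other and lay above all arrays of CLP, preCFUE and preGM. preGM replicate 3 read 14.9 where the other preGM arrays read 42.7 and 41.7.

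**Figure D2:**
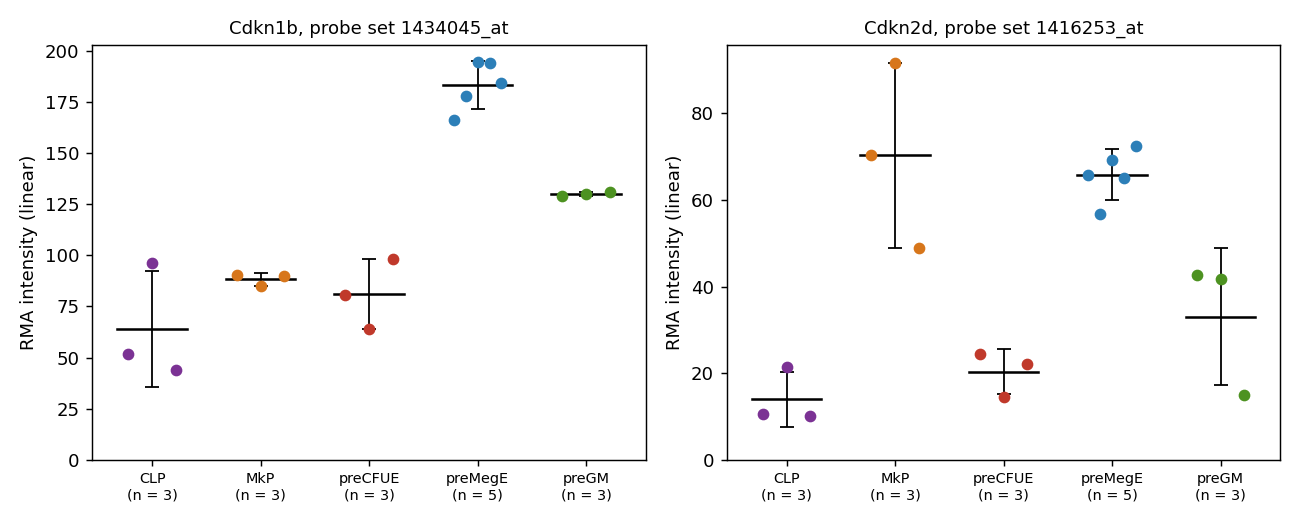
RMA intensity (linear, y axis from 0) of Cdkn1b probe set 1434045_at and Cdkn2d probe set 1416253_at on each array, by fraction (x axis). Points are arrays, horizontal bars are means and error bars are SD. In preCFUE both genes read lower than in preMegE, while in MkP Cdkn1b read lower and Cdkn2d overlapped preMegE.

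Mean Cdkn2d intensity was 14.0 ± 6.39 in CLP, 70.3 ± 21.4 in MkP, 20.3 ± 5.16 in preCFUE, 65.8 ± 5.93 in preMegE and 33.1 ± 15.8 in preGM. The branches beyond preMegE differed from each other, with MkP above preCFUE by 1.23 ± 0.24 (limma adjusted p = 0.00424). preCFUE was lower than preMegE (-1.18 ± 0.21, 0.00378), whereas MkP against preMegE gave 0.05 ± 0.21 (0.93, 95% interval -0.40 to 0.50). CLP was lower than MkP (-1.52 ± 0.24, 0.000746) and than preMegE (-1.47 ± 0.21, 0.000273). These 4 differences passed under every alternative that was run for them.

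The differences of Cdkn2d from preGM were less firm. MkP against preGM gave 0.84 ± 0.24 (adjusted p = 0.0487) and was lost in 18 of 28 alternatives, with a highest adjusted p of 0.194 and, without preGM replicate 3, a fold change of 0.54 (0.126). preMegE against preGM gave 0.79 ± 0.21 (0.0435) and was lost in 14 of 28, with 0.49 (0.223) without preGM replicate 3. With the replicate number as a block these differences had adjusted p of 0.0926 and 0.186. preCFUE against preGM (-0.39 ± 0.24, 0.501) and CLP against preCFUE (-0.29 ± 0.24, 0.452) did not pass, and the preCFUE difference from preGM passed with array weights (-0.61, 0.00946).

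Cdkn2c, which encodes the INK4C protein and in mice is known to limit the renewal of blood stem cells, varied least among the members that passed the F test. Probe set 1416868_at read 70.8, 112 and 62.0 in CLP, 204, 166 and 155 in MkP, and 128, 94.7 and 178 in preCFUE. It read 129, 107, 95.3, 119 and 141 in preMegE and 118, 119 and 138 in preGM. All MkP arrays lay above all CLP, preMegE and preGM arrays, and the preCFUE arrays spanned the range of preMegE and overlapped MkP.

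Mean Cdkn2c intensity was 81.8 ± 26.9 in CLP, 175 ± 25.9 in MkP, 133 ± 41.8 in preCFUE, 118 ± 18.1 in preMegE and 125 ± 11.5 in preGM. Only CLP against MkP passed of its 10 pairs (-0.99 ± 0.21, limma adjusted p = 0.00708), and that call was lost in a fit of only those 6 arrays (0.0805). Its F test was lost without CLP replicate 1 (0.0917), CLP replicate 3 (0.0984), MkP replicate 1 (0.0832) or MkP replicate 2 (0.0552) and with the replicate number as a block (0.0979). The neighbours in its order were not separated, with MkP against preCFUE at 0.38 ± 0.21 (0.30), preCFUE against preGM at 0.05 ± 0.21 (0.975), preMegE against preGM at -0.08 ± 0.19 (0.964) and CLP against preMegE at -0.48 ± 0.19 (0.0943). The first of these passed under quantile normalization (0.74, 0.0492), and the last without CLP replicate 2 (-0.70, 0.0142).

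Cdkn1c, which encodes the KIP2 protein, is an imprinted gene read from the maternal copy and is known in mice to keep blood stem cells quiescent. Probe set 1417649_at read 10.1, 8.89 and 15.6 in CLP, 17.7, 10.3 and 14.1 in MkP, and 8.28, 6.70 and 9.80 in preCFUE. It read 8.90, 8.74, 8.25, 7.77 and 8.13 in preMegE and 13.0, 15.4 and 8.78 in preGM. Of the 17 arrays, 16 were under 16, and no pair of fractions passed. The F test passed with array weights (adjusted p = 0.00543), without preGM replicate 3 (0.0430) and without MkP replicate 2 (0.0476). A dim reading is not evidence that the transcript was absent.

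**Figure D3:**
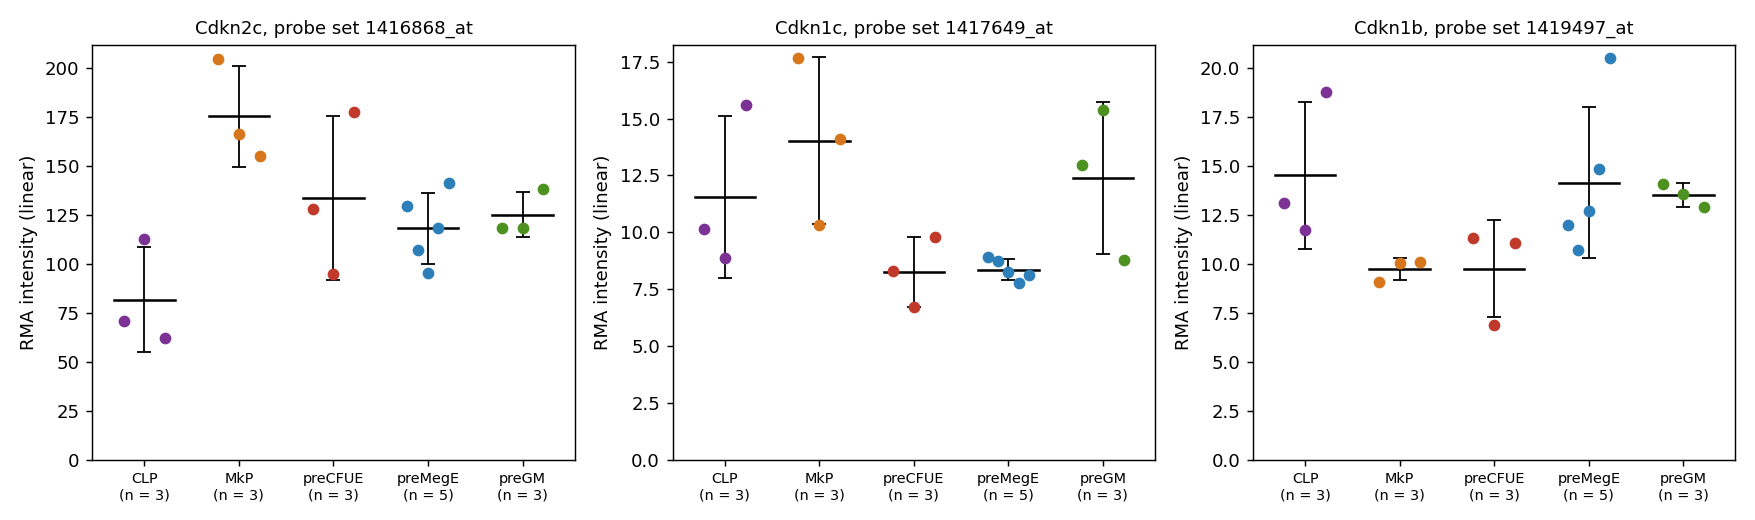
RMA intensity (linear, y axis from 0) of Cdkn2c, Cdkn1c and the second Cdkn1b probe set on each array, by fraction (x axis). Points are arrays, horizontal bars are means and error bars are SD. Cdkn2c runs from 62.0 to 204, whereas Cdkn1c stays between 6.70 and 17.7 and Cdkn1b 1419497_at between 6.90 and 20.5.

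Set out by comparison, members passed in opposite directions in CLP against MkP, preMegE and preGM and in MkP and preMegE against preGM, and in 1 direction in the other 5 comparisons. In CLP against MkP, 4 of 7 member probe sets passed, with both of Cdkn1a higher and Cdkn2c and Cdkn2d lower, against 8.35% of all probe sets. In CLP against preMegE 4 passed, with both of Cdkn1a higher and Cdkn1b and Cdkn2d lower (background 16.7%). In CLP against preGM 3 passed, both of Cdkn1a higher and Cdkn1b lower (background 10.8%), and in CLP against preCFUE 2 passed, both of Cdkn1a (background 20.3%).

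**Figure D4:**
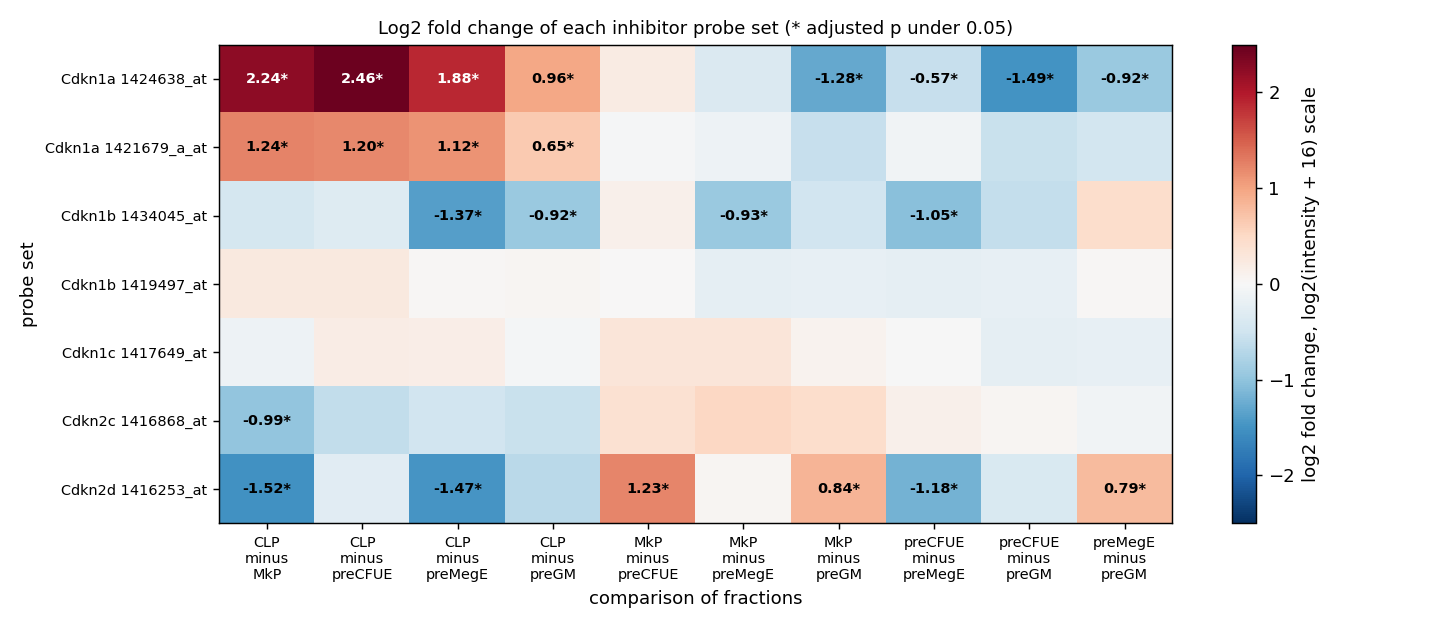
Log2 fold change on the log2(intensity + 16) scale (colour) of each member probe set (rows) in each of the 10 comparisons (columns, first fraction minus second). Numbers with an asterisk mark an adjusted p under 0.05. Cdkn1a is red in all 4 CLP columns, where Cdkn1b, Cdkn2c and Cdkn2d are blue wherever they passed.

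Among myeloid fractions, 3 of 7 passed in preCFUE against preMegE, and all 3, the leading Cdkn1a and Cdkn1b probe sets and Cdkn2d, were lower in preCFUE (background 5.34%). In MkP against preMegE 1 passed, Cdkn1b, which was lower in MkP (background 6.28%). In MkP against preCFUE 1 passed, Cdkn2d, which was higher in MkP (background 10.1%). In preMegE against preGM 2 passed, Cdkn1a lower and Cdkn2d higher (background 5.21%), and the same genes passed in those directions in MkP against preGM (background 6.55%). In preCFUE against preGM 1 passed, Cdkn1a, which was lower (background 8.48%). For every one of these passing pairs the arrays of the 2 fractions did not overlap. That also held for pairs that did not pass, such as Cdkn1b 1419497_at in MkP against preGM (limma adjusted p = 0.32). The share of such pairs over all probe sets was not computed, so the lack of overlap adds nothing to the tests. With 7 probe sets, several of them of the same gene, these counts are a description of the members.

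As a description over the 17 arrays, which share fractions and RNA amplification, Cdkn1b and Cdkn2d had a Pearson correlation of 0.67 and Cdkn2c and Cdkn2d one of 0.54. Cdkn1a ran the other way, at -0.60 with Cdkn2c and -0.51 with Cdkn2d. Of 8088 genes compared with it, Marcks, a substrate of protein kinase C, was most like Cdkn1a (r = 0.98), with a mean intensity of 934 in CLP, 55.3 in MkP, 17.2 in preCFUE, 65.7 in preMegE and 219 in preGM. Cdk19, which encodes a kinase of the Mediator complex, and Mgst2 followed (both r = 0.97), and Trip6 and Diaph3 were the most opposite (both -0.95). Most like Cdkn1b were the phosphatase gene Cdc14a (0.94), the glutamine synthetase gene Glul (0.93) and Pnrc2 (0.92). Most like Cdkn2d were the formin gene Diaph1 and Cmas (both 0.95) and Tpst2 (0.94), and Clcn3 was most opposite (-0.92). Most like Cdkn2c was Ndufa3 (0.91), and Fos, an immediate-early gene, was among its most opposite (-0.80), with a mean of 1249 in CLP, 20.0 in MkP, 25.8 in preCFUE, 58.3 in preMegE and 75.5 in preGM.

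A list of cyclin and kinase genes was set beside the inhibitors, among them Cdk7, Ccnh and Mnat1, which are not taken as bound by them. This list gave 1 probe set for each of 15 measured genes. In preCFUE against preMegE, 4 were higher, 1 was lower and 10 did not pass, with a median log2 fold change of 0.37 (5.6e-05 over all probe sets, of which 3.04% were higher and 2.3% lower). Ccne1, the cyclin E1 gene, averaged 801 ± 189 in preCFUE and 107 ± 18.7 in preMegE (2.72 ± 0.23, limma adjusted p = 6.54e-06). The mitotic kinase gene Cdk1 (1.34), the cyclin A2 gene Ccna2 (1.32) and Ccnb2 (1.10) were also higher, and the INK4-bound kinase gene Cdk6 was lower (-0.74), a call lost on leaving out any 1 of the preCFUE arrays, among others. In the same comparison the leading Cdkn1a and Cdkn1b probe sets and Cdkn2d were lower. Cdkn2c (0.13 ± 0.19, limma adjusted p = 0.947) and the second Cdkn1a probe set (-0.088 ± 0.17, 0.973) did not pass. A link between the inhibitors and these genes was not tested.

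In MkP against preMegE, 3 of these 15 genes were higher and 12 did not pass, with a median of -0.07 (0.0087 over all probe sets, 2.56% higher and 3.72% lower). Ccna2 averaged 1012 ± 59.8 in MkP and 373 ± 65.0 in preMegE (1.42 ± 0.15, adjusted p = 5.55e-05), Cdk1 was higher by 1.09 and the D-type cyclin gene Ccnd3 by 0.69. Among the members only Cdkn1b passed in that comparison, and it was lower in MkP. Between preMegE and preGM only Ccnd1 passed, at -1.12, with a median of -0.30 (0.015 over all probe sets, 1.75% higher and 3.46% lower). Ccnb2 (-2.01) and Ccna2 (-0.67) were lower in CLP than in preGM and 13 did not pass, with a median of -0.67 (0.028 over all probe sets, 3.9% higher and 6.91% lower). Without CLP replicate 2, 10 of the 15 were lower in CLP, and over all alternatives 0 to 10. The number called over all probe sets in this comparison moved as well, from 4867 with all arrays to between 1886 and 10445 with single arrays left out. The same applies to the counts of the other lists in CLP against preGM below. The abundant Cdk4, at 715 ± 419 in CLP and 1305 ± 384 in preGM, did not pass (-0.95 ± 0.35, 0.0935).

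Genes of the division cycle itself gave the wider setting, in 18 S phase and 19 G2 and M phase genes. For these and the lists below, the background is the share of all probe sets that passed. It was 5.34% in preCFUE against preMegE, 6.28% in MkP against preMegE, 5.21% in preMegE against preGM and 10.8% in CLP against preGM. In preCFUE against preMegE, 9 S phase genes were higher (median 0.69) and 15 G2 and M phase genes (median 1.07), and none was lower. Rrm2, which encodes a ribonucleotide reductase subunit, was higher by 1.69, Cdc6 by 1.72, the checkpoint kinase gene Bub1 by 1.87 and Kif20a by 1.72. In MkP, 4 S phase genes (median 0.33) and 7 G2 and M phase genes (median 0.85) were higher than in preMegE and none was lower, with Rrm2 at 1.62 and Ube2c at 1.49. In preMegE against preGM, 6 S phase genes and 1 G2 and M phase gene were lower (medians -0.53 and -0.27), among them Rrm2 (-1.14) and Bub1b (-0.60). Of each list 4 genes were lower in CLP than in preGM (medians -0.50 and -0.72), with Bub1 at -1.70 and Rfc4 at -1.57, and without CLP replicate 2 these counts were 7 and 8. Over all alternatives they ran from 0 to 8 for S phase and from 1 to 8 for G2 and M phase genes.

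The retinoblastoma family and E2F factors, through which INK4 proteins act, gave 13 measured genes. In CLP against preGM, 4 were lower, 1 was higher and 8 did not pass (median -0.46), with 0 to 6 lower over the alternatives. Rbl1 averaged 235 ± 170 in CLP and 663 ± 33.3 in preGM (-1.64 ± 0.41, limma adjusted p = 0.0244), Rbl2 was lower by 1.57 and Rb1 by 1.13, all of which encode pocket proteins. In MkP against preMegE, the E2F repressor gene E2f7 averaged 196 ± 14.8 in MkP and 46.5 ± 11.8 in preMegE (1.78 ± 0.19, 5.43e-05), and E2f2 was higher by 0.35. In preMegE against preGM, E2f8 was higher (1.29) and E2f7 lower (-0.93), and in preCFUE against preMegE, E2f2 was higher (0.31) and Tfdp2 lower (-0.72).

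Of 13 measured genes for the ubiquitin ligases and proteasome factors that remove inhibitor proteins, 3 were higher and 0 lower in preCFUE than in preMegE. These were Psme3 (1.17), a proteasome activator subunit gene, Cdc20 (0.94), which activates the anaphase-promoting complex, and Ubac1 (0.92), part of a ligase for the Cdkn1b protein. Skp2, whose product marks the Cdkn1b protein for degradation, averaged 230 ± 26.3 in preCFUE and 119 ± 27.3 in preMegE and did not pass (0.89 ± 0.27, adjusted p = 0.0745). MkP had higher Cdc20 (0.91) and lower Cul4a (-0.85) than preMegE, and in preMegE against preGM, Cul4a was higher (0.65), a call lost on leaving out any 1 of the MkP or preCFUE arrays, among others. Between CLP and preGM, Rbx1 was higher in CLP (0.66) and Dtl (-1.28), Psme3 (-1.09) and Cdc20 (-0.66) were lower. Without CLP replicate 2, 8 of the 13 were lower in CLP, and over all alternatives 0 to 8.

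A list of the p53 gene, its regulators and its targets, a group in which Cdkn1a is commonly placed, gave 14 measured genes besides it. The p53 gene itself, Trp53, was on the list but not among the measured genes. In MkP against preMegE, 4 were lower and 0 higher. Trp53inp1 averaged 73.5 ± 10.1 in MkP and 821 ± 219 in preMegE (-3.19 ± 0.20, limma adjusted p = 2.28e-07), and Zmat3 (-2.52), Gadd45a (-2.26) and Ccng1 (-1.49) were lower. In preCFUE against preMegE, Trp53inp1 alone passed, at 70.3 ± 6.98 in preCFUE and 821 ± 219 in preMegE (-3.24 ± 0.20, 3.32e-07). In preMegE against preGM, where Cdkn1a was lower, Zmat3 (1.77), Gadd45a (1.65) and Ccng1 (0.89) were higher and Sesn1 (-1.46) and Btg2 (-0.74) lower. In CLP against preGM, where Cdkn1a was higher, Trp53inp1 was higher (1.36) and Ccng1 (-1.15) and Ei24 (-0.78) were lower. In both of these comparisons the list held genes on either side of Cdkn1a's direction. In CLP against MkP, 2 were higher and 0 lower (background 8.35%), and in MkP against preGM 0 and 2 (6.55%), as Cdkn1a was. Both directions were found in CLP against preCFUE (3 higher, 4 lower, background 20.3%), CLP against preMegE (3 and 3, 16.7%) and preCFUE against preGM (2 and 3, 8.48%). A shared input to Cdkn1a and these genes was not tested.

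FoxO factors and TGF-beta signalling are known to raise transcripts of Cdkn1a and Cdkn1b in several cell types. Of these pathways 12 genes were measured, among them Smad7, Akt1 and Akt2, whose products act against TGF-beta signalling or FoxO factors. Foxo1 averaged 980 ± 53.9 in CLP and 168 ± 29.2 in preGM (2.45 ± 0.19, limma adjusted p = 1.91e-06), Smad7 was also higher in CLP (0.95) and Akt2 lower (-0.76). Without CLP replicate 2, 4 of the 12 were lower in CLP than in preGM and 2 higher, and over all alternatives 0 to 4 were lower. Foxo3 averaged 397 ± 74.5 in MkP and 847 ± 59.2 in preMegE (-1.08 ± 0.20, 0.00424), with Tgfbr1 (-0.88) and Smad3 (-0.38) also lower and Akt1 higher (0.72). In preCFUE against preMegE, the receptor gene Tgfbr2 (-1.28) and the signal mediators Smad3 (-0.91) and Smad4 (-0.80) were lower and 9 genes did not pass. Of the 12 genes, 0 passed in preMegE against preGM by limma, and 2 had an unadjusted p under 0.05.

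Of 17 measured imprinted genes that share the domain or the network of Cdkn1c, Grb10, a growth factor receptor adaptor gene, averaged 857 ± 169 in preMegE and 62.5 ± 10.7 in preGM (3.46 ± 0.15, adjusted p = 2.1e-09). Tspan32 (2.27) and Cd81 (0.66), both near Cdkn1c in the genome, were also higher in preMegE. Plagl1 (1.65) and Ndn (1.29) were higher and Grb10 lower (-1.14) in MkP than in preMegE. Meg3 (0.58) and Cd81 (0.41) were higher in CLP than in preGM and Grb10 (-1.38) and Gnas (-0.78) lower, and in preCFUE against preMegE, Cd81 alone passed (0.33), a call lost on leaving out any 1 of the preCFUE arrays, among others. The named inhibitor genes outside the members, Cdkn2a, Cdkn2b and Cdkn3, passed in 0 of the 4 comparisons by limma, and unadjusted p-values under 0.05 were found for Cdkn3 in MkP (0.0095) and in preCFUE (0.0134) against preMegE and for Cdkn2b in MkP against preMegE (0.04997). Cdkn3, a phosphatase gene named with this family, averaged 44.8 ± 14.8 in MkP and 26.3 ± 4.46 in preMegE (0.50 ± 0.17, adjusted p = 0.0988).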

How the data were processed

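Gene expression was measured on 17 Affymetrix arrays of 5 sorted fractions. The authors deposited linear RMA intensity values, and the submitters' processing notes name RMA, whose version is not given in the sources used here. Per the design text, RNA was amplified by in vitro transcription in more than 1 round, which shortens it toward the 3-prime end. The design text's filter on SD over mean above 0.5 is not applied in the deposited table of 45101 probe sets. The arrays' medians ran from 16.0 to 19.1, and 47.3% of values lay under 16. No genome build is given for the array.

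Samples were grouped by the gate in their titles. The description of all arrays names another gate and was not used. The names CLP, MkP, preCFUE and preGM follow the field's usage for these gates. Gene symbols came from the platform annotation: 34945 of the 45037 tested had 1 symbol, 932 of the 45101 had several, and 64 controls were left out. The deposited values were taken as log2(intensity + 16) and fitted in limma 3.58.1 (R 4.3.3; 12 residual and 1.82 prior degrees of freedom). The fit was also run on simulated arrays with independent noise for each probe set. Those held no outlying array such as CLP replicate 2, so they do not bear on its effect. Alternatives were another pseudocount (1 or 64), quantile normalization, median centring, filters on level (above the 40th percentile) and variation, 1 probe set a gene, array weights, the Gapdh control ratio as covariate, a replicate block, a fit of only the arrays compared, and leaving out each array. Likeness was ranked among genes with a fraction mean of at least 64, naming the 3 highest and 3 lowest correlations. List genes named are up to 4 largest changes past the test and up to 2 abundant ones that did not pass. The members and lists were chosen with earlier results of these data known.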

Additional observations from a re-analysis of the deposited data

How the results depend on the processing

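The fold changes of single members held up as follows. Of 291 recomputed values of member differences that passed, 277 still passed and 14 did not, with none reversed, and of 476 with an array left out, 433 passed and 43 did not. The losses fell on the second Cdkn1a probe set in CLP against preGM, Cdkn2d in MkP and in preMegE against preGM, the Cdkn2c F test, and, in fits of only the arrays compared, Cdkn1b in CLP against preGM and Cdkn2c in CLP against MkP. Results that had not passed were recomputed only for neighbours in the order of fraction means of the brighter probe sets and for F tests. Gains in other pairs are not in these counts. Of 180 such values, 9 passed and 3 turned sign, and of 306 with an array left out, 8 passed and 5 turned sign. For the second Cdkn1a probe set in MkP against preCFUE they were 0.058 with the 3-prime over 5-prime ratio as covariate, 0.040 without MkP replicate 3 and 0.025 without preCFUE replicate 2 (-0.10 to 0.040 with arrays left out). They were -0.012 for Cdkn1b in MkP against preCFUE without preCFUE replicate 2 (up to 0.24 with arrays left out), and -0.16 for Cdkn2c in preCFUE against preGM without preCFUE replicate 3 (up to 0.25). Cdkn2c in preMegE against preGM gave 0.018 under quantile normalization and 0.036 with array weights, and Cdkn2d in MkP against preMegE gave -0.12 without MkP replicate 2 (up to 0.24). The cause of these changes was not tested. Of 3187 recomputed values of list genes that passed, 2734 still passed, 453 did not and 0 turned sign. Counts of list genes moved more, as for G2 and M phase genes higher in MkP than in preMegE (7, from 3 to 16 over the alternatives) and higher in preCFUE than in preMegE (15, from 6 to 16).

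The number of member probe sets that passed was 3 by the F test with the filter on SD over mean. That filter left only the Cdkn1a probe sets and Cdkn2d of the members to test, and all of these passed. The number was 1 in CLP against preGM with only those arrays, and 2 in MkP against preCFUE under quantile normalization and with array weights. In MkP against preMegE it was 2 under quantile normalization, 3 with array weights and 0 with the SD over mean filter. That 0 was set by the filter, which removed Cdkn1b, the only member called there, before testing. Cdkn1b passed in every alternative that was run for it. In MkP against preGM the number was 1 with a pseudocount of 1, median centring or the replicate block and 4 with array weights. In preCFUE against preGM it was 2 with a pseudocount of 64, the filter on level, the SD over mean filter, 1 probe set a gene or the ratio covariate, and 5 with array weights. In preMegE against preGM it was 1 with a pseudocount of 1, median centring or the replicate block and 5 with array weights. With arrays left out, it ran from 4 to 6 by the F test, 4 to 5 in CLP against MkP and against preMegE, 2 to 4 in CLP against preCFUE and against preGM, 1 to 2 in MkP against preCFUE and against preMegE, 1 to 4 in MkP against preGM, and 1 to 3 in preCFUE and in preMegE against preGM. It stayed at 3 in preCFUE against preMegE.

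Over all probe sets, the F test over the 5 fractions called 10663, but 3730 with the SD over mean filter, 6362 with 1 probe set a gene and 6969 with the replicate block. The SD over mean filter and 1 probe set a gene also test fewer probe sets, in the latter 18193 against 45037. Their lower counts here and below are therefore not lower shares as such. CLP against MkP called 3759, but 2209, 2253 and 1608 with the SD over mean filter, 1 probe set a gene and only those arrays. In the same order CLP against preCFUE called 9152, but 3101, 5257 and 5010, and CLP against preMegE 7523, but 2785, 4597 and 4630, with 3878 under the replicate block. CLP against preGM called 4867, but 2046 with the SD over mean filter, 8360 with array weights, 2578 with the ratio covariate, 2299 with the replicate block and 593 with only those arrays. MkP against preCFUE called 4529, but 1986, 2959 and 7625 with the SD over mean filter, 1 probe set a gene and array weights. In that order MkP against preMegE called 2829, but 1465, 1884 and 4916, with 1277 under the replicate block, and preCFUE against preMegE 2406, but 1298, 1603 and 4641, with 1204 under the block. MkP against preGM called 2949, but 1660 with the SD over mean filter, 10279 with array weights and 1765 with the block, preCFUE against preGM 3817, but 2269 and 7945 with that filter and those weights, and preMegE against preGM 2346, but 5377 with array weights and 1484 with the block. With arrays left out, the counts ran from 8642 to 13631 by the F test, 2742 to 5267 in CLP against MkP, 6456 to 11861 against preCFUE, 4252 to 11278 against preMegE and 1886 to 10445 against preGM. They ran from 2629 to 5448 in MkP against preCFUE, 1671 to 3631 against preMegE, 1687 to 3782 against preGM, 1534 to 2739 in preCFUE against preMegE, 2874 to 4254 against preGM and 1760 to 2601 in preMegE against preGM. Array number and dim signal, with 15 and 16 of 17 arrays under 16 for the dim probe sets of Cdkn1b and Cdkn1c, limit what could be resolved. Replicate numbers did not pair the arrays in general: same-numbered arrays of different fractions correlated in their deviations from the fraction means at -0.54 to 0.50, with 12 of 30 pairs above 0.1, against 29 of 84 for different numbers. This does not exclude a batch shared by some arrays. Replicate 1 of preGM correlated with that of preMegE at 0.40 and of preCFUE at 0.45, and the latter 2 at 0.50. Their log2 Gapdh ratios, 2.72, 2.87 and 2.85, were the lowest of all arrays. In CLP with MkP alone all 3 same-numbered pairs were above 0.1 (0.11, 0.41 and 0.18), and there the replicate block left the 4 member probe sets past the test (2956 of all probe sets).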
